A study of Homo sapiens with 6 samples.

Results

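CTHRC1, MFAP2, MFAP5, CLEC11A, C1QTNF4, CERCAM and CALU encode proteins that are released from the cell or that handle proteins of the extracellular matrix on their way out of it. These 7 genes, of 58735 in the table, were chosen by their differences between the siControl and siHOXA3 libraries, since some refits of the same counts gave them an adjusted p-value under 0.05. Their values in this comparison are therefore given as a description, and no test is drawn from them. All 7 passed the filter on low counts, which left 16561 genes for analysis.

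RNA-seq was performed on cells differentiated for 9 days from H9, an established line of human embryonic stem cells, toward the endoderm of the third pharyngeal pouch (3PPE), the tissue from which the thymus and parathyroid arise. The 6 libraries were 3 labelled siControl, transfected with a negative control siRNA, and 3 labelled siHOXA3, transfected with an siRNA against the homeobox gene HOXA3. Both groups were otherwise treated alike: H9 cells were kept on a layer of mouse embryonic fibroblasts, were replated on Matrigel at day 4, received retinoic acid, BMP4, the TGF-β receptor inhibitor SB431542 and the Wnt secretion inhibitor IWP2, were transfected at day 7 and were collected at day 9. One cell line and a single siRNA label represent the knockdown, and the methods give triplicates for each group. The labels do not say whether the libraries of a group came from separate cultures, although a legend of the study speaks of independent biological repeats for its experiments, so the spread between libraries may be partly technical. In bulk RNA, fewer cells of a type and less RNA per cell cannot be told apart.

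Fibrillin microfibrils are thin fibres that give tissues elasticity and hold growth factors of the TGF-β family in the matrix. MFAP2 and MFAP5 are small glycoproteins bound to these fibres, while CTHRC1, CLEC11A and C1QTNF4 are secreted signalling proteins. CERCAM and CALU belong to families that work in the endoplasmic reticulum, where collagens and other secreted proteins are modified and folded.

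The total counts ranged from 14117150 to 15282307 per library, and 3 counts, the upper bound for a gene with none, equalled 0.196 to 0.211 CPM (counts scaled to the normalised library size), a bound that covers counting error only. The lowest count of any of the 7 genes was 25, for C1QTNF4 in siControl replicate 3. HOXA3 itself was at 16.6, 15.8 and 15.4 CPM in the siControl libraries and at 10.9, 13.2 and 15.5 CPM in the siHOXA3 libraries. The groups overlapped at siHOXA3 replicate 3, whose HOXA3 level was within the range of the controls, and the log2 fold change was -0.27 with a standard error of 0.157, or -0.28 without siHOXA3 replicate 2. siHOXA3 replicate 2 stood apart from the other libraries: 2059 genes with under 2000 exonic bases deviated by a median of 0.24 (log2) from the mean of the other siHOXA3 libraries, and 1726 genes with over 10000 bases had a median deviation of -0.32. Of the 7 genes, CTHRC1, CLEC11A and C1QTNF4 are under 2000 exonic bases and none is over 10000, and the part of this deviation in their values was not tested. The fold change of each of the 7 genes is given with and without this library, and that of a related gene without it where the direction or size differs.

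The identity of the cells was compared with marker genes. EPCAM, an epithelial marker, lay between 252 and 385 CPM, and GATA6 and CXCR4, of the endoderm list, lay between 51.9 and 58.1 CPM and between 1.86 and 3.66 CPM. FOXA2 and SOX17, which define early endoderm, were at or under 0.14 CPM in every library, and FOXA1 and GATA4 were under 1 CPM. The summed level of 12 endoderm and epithelium markers, 7 of them at 1 CPM or more in a library, was 6602 to 6829 CPM in siControl and 6234 to 7941 CPM in siHOXA3. The epithelial keratins KRT8 and KRT18 made up most of this sum, at means of 3620 and 1480 CPM in siControl. In siHOXA3 their means were 3740 and 1480 CPM, so the sum is not a level of endoderm genes. Matrix genes are typical of fibroblasts, and 15 fibroblast and mesenchyme markers, of which 12 reached 1 CPM, summed to 5079 to 5270 CPM in siControl and 5298 to 5795 CPM in siHOXA3. COL1A1, LUM, COL1A2 and COL3A1 were the highest of this list, at means of 1360, 1140, 976 and 933 CPM in siControl and 1500, 1110, 1110 and 928 CPM in siHOXA3. PRRX1, POSTN and FAP were at 0 or under 1 CPM. Of the 12 genes of the list that were tested, COL1A2 and THY1 were higher without overlap (16.7%, beside 6.38% of all tested genes). COL6A3 was lower without overlap (8.33%, beside 6.89%). Their log2 fold changes were 0.18, 0.41 and -0.55, and none had an edgeR adjusted p under 0.05. COL6A3 has 19633 exonic bases and was at 9.74, 4.71 and 9.27 CPM in siHOXA3, lowest in replicate 2. In siControl it was at 11.2, 12.1 and 11.4 CPM, and the part of the length-related deviation in its fold change was not tested. The sums of 9 amnion and trophoblast markers, all of which reached 1 CPM, were 5270 to 5711 CPM and 5866 to 6468 CPM, and those of 4 neural crest markers, 2 of which reached 1 CPM, were 12.3 to 13.3 CPM and 18.0 to 20.5 CPM. The fibroblast, amnion and neural crest sums did not overlap between the groups, with ratios of 1.07, 1.12 and 1.47, and each had an exact two-sided permutation p of 0.1, the smallest that 3 libraries against 3 can give, and 0.133 after adjustment over the 4 lists. The part of these cell types in the values of the 7 genes was not tested.

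HOXA3 belongs to the homeobox factors, whose DNA-binding domain recognises a TAAT core. Promoter sequences are shown because they allow the DNA before RefSeq starts of the genes to be read for this core. RefSeq promoters (GRCh38.p14, 250 bases before to 50 after the start) were matched for MFAP2, CLEC11A, CERCAM and CALU, and not for CTHRC1, MFAP5 and C1QTNF4. The longest run of each window without an annotated exon of the gene is printed 5′ to 3′ on the strand of the gene, from chr1:16981584-16981833 (minus strand) for MFAP2, chr19:50723114-50723328 (plus) for CLEC11A, chr9:128418910-128419113 (plus) for CERCAM and chr7:128739109-128739291 (plus) for CALU. Capitals mark TAAT on either strand (TAAT or ATTA) and the GC box GGGCGG.
MFAP2: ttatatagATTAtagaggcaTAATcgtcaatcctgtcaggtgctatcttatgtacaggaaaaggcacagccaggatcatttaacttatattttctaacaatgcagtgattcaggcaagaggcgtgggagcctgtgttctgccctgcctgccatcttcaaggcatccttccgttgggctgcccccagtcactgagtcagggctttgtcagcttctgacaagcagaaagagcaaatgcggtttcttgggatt
CLEC11A: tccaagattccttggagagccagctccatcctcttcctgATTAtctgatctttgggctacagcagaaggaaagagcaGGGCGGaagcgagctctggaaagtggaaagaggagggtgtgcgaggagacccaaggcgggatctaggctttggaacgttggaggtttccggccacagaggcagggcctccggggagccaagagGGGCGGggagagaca
CERCAM: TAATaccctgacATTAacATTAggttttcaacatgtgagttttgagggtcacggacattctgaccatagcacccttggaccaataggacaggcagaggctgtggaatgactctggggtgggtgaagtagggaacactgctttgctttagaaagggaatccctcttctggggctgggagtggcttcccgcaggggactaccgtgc
CALU: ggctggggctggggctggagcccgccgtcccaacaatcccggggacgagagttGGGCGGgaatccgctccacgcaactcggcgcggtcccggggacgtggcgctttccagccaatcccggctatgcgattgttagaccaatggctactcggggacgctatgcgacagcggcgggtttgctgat
In the printed stretches, MFAP2 had 2 matches to TAAT, CERCAM had 3, CLEC11A had 1 beside 2 GC boxes, and CALU had 1 GC box and no TAAT. The whole window of CALU held 3 GC boxes and no TAAT, and the whole windows of the other stretches held the same counts as printed. The MFAP2 and CERCAM stretches belong to 1 of 2 RefSeq starts of each gene, and the windows at their other starts held 4 and 5 GC boxes and no TAAT. The CERCAM windows lie inside the annotated span of the gene (128411751 to 128437351). The MFAP2 stretch lies beyond the annotated 5′ end of the gene (16980835), which the other window covers. The letters TGATNNAT, a joint HOX and PBX motif, and TATAAA were searched on both strands and were in no window of the 4 genes. Of 35116 promoters of the same length, 50.2% held TAAT, 45.0% held GGGCGG, 7.40% held TGATNNAT and 11.5% held TATAAA. MFAP2, CLEC11A and CERCAM were higher and CALU was lower in siHOXA3. The matches are letters in a window, not measured binding, and nothing is read from them beside these directions.

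MFAP2 (ENSG00000117122, chromosome 1 from 16974502 to 16980835, minus strand), also called MAGP-1, binds fibrillin and growth factors of the TGF-β family. It was counted 281, 257 and 189 times in siControl and 369, 490 and 351 times in siHOXA3, which corresponded to 18.8, 17.0 and 12.4 CPM against 25.3, 32.5 and 24.7 CPM. Every siHOXA3 library was above every siControl library, and the library that stood apart was the highest. The mean was 16.0 ± 3.33 CPM in siControl and 27.5 ± 4.36 CPM in siHOXA3 (SD, n = 3), a log2 fold change of 0.78 with a standard error of 0.176. Without siHOXA3 replicate 2, the log2 fold change was 0.64.

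MFAP5 (ENSG00000197614, chromosome 12 from 8637346 to 8662888, minus strand), or MAGP-2, is the paralog of MFAP2 and carries an integrin-binding motif that MFAP2 lacks. Its CPM were 14.7, 15.1 and 19.9 in siControl and 10.0, 9.95 and 8.99 in siHOXA3, from counts of 128 to 305. All siHOXA3 libraries were lower than all siControl libraries, and they lay close to each other, with a coefficient of variation of 5.94% against 17.5% in siControl. The mean was 16.6 ± 2.9 CPM in siControl and 9.65 ± 0.573 CPM in siHOXA3 (SD, n = 3), 1.72-fold lower in siHOXA3, with a log2 fold change of -0.78 (standard error 0.165) and of -0.81 without siHOXA3 replicate 2. A pseudogene on the opposite strand, HADHAP2, shares 65 of its exonic bases (1.68% of its length), and without knowledge of the strand their reads cannot be told apart.

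The pair thus differed in opposite directions on the same scale. Scaled by exonic length, the MFAP2 level over the MFAP5 level was 1.7, 1.49 and 0.824 in the siControl libraries and 3.36, 4.34 and 3.65 in the siHOXA3 libraries. The mean ratio of these levels was 1.34 ± 0.457 in siControl and 3.78 ± 0.506 in siHOXA3 (SD, n = 3), and no siHOXA3 library had a ratio as low as the highest control. MFAP5 was above MFAP2 only in siControl replicate 3. Of the other microfibril-associated genes, MFAP3, a membrane protein, was at 44.1 ± 3.72 CPM in siControl and 36.4 ± 7.78 CPM in siHOXA3 (edgeR adjusted p = 0.828). Its log2 fold change was -0.28, or -0.11 without siHOXA3 replicate 2. Like MFAP5 it was lower without overlap, narrowly, at 41.6, 27.5 and 40.2 CPM in siHOXA3 against 41.7, 48.4 and 42.2 CPM in siControl. Lower levels without overlap were found for 6.89% of all tested genes. MFAP4 had at most 9 counts in any library and did not pass the filter.

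**Figure D1:**
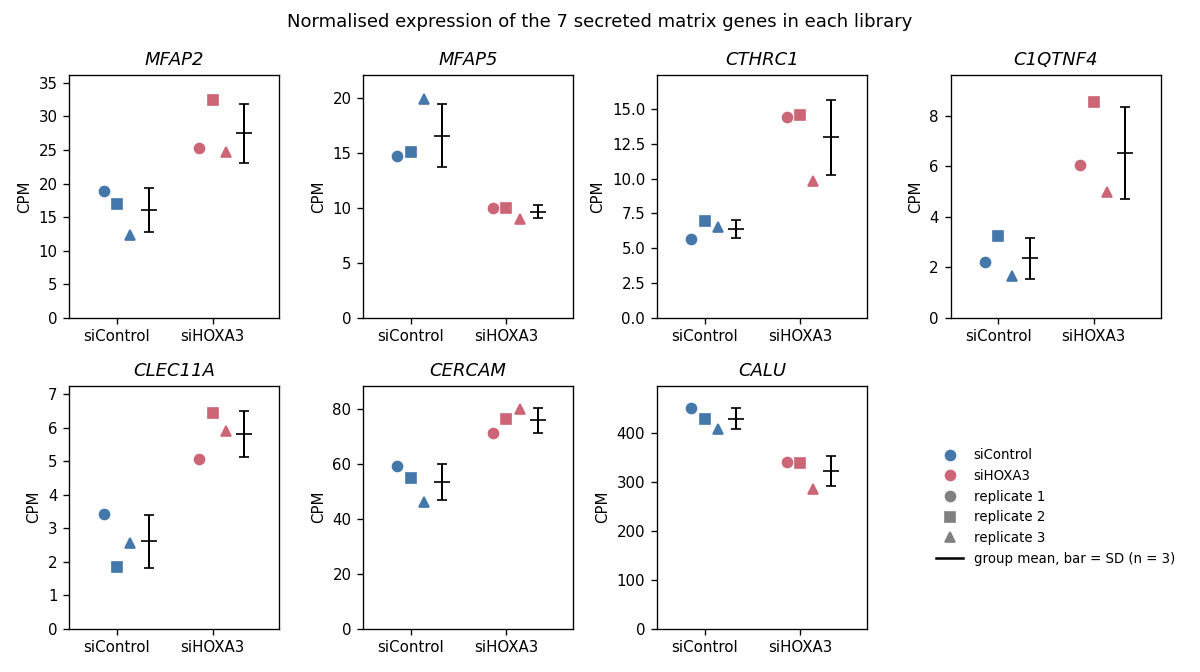
Normalised expression (CPM, linear axes from 0) of each of the 7 genes in each library, with siControl in blue, siHOXA3 in red, replicates 1 to 3 as circles, squares and triangles, and the group mean with its SD (n = 3) beside them. MFAP5 and CALU were lower and the other 5 genes higher in all 3 siHOXA3 libraries than in all 3 siControl libraries, the choice of the genes having used this contrast.

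CTHRC1 (ENSG00000164932, chromosome 8 from 103371515 to 103382997, plus strand) is a secreted glycoprotein with a short collagen-like stretch, known for cell migration and for binding Wnt receptor complexes of the planar polarity pathway. It was counted 85, 106 and 100 times in siControl and 211, 220 and 140 times in siHOXA3. The siControl libraries lay between 5.69 and 6.99 CPM, and the siHOXA3 libraries at 14.5, 14.6 and 9.83 CPM. The groups did not overlap, and siHOXA3 replicate 3 was the lowest of its group. With means of 6.41 ± 0.659 CPM in siControl and 12.97 ± 2.71 CPM in siHOXA3 (SD, n = 3), there was a 2.02-fold difference with a log2 fold change of 1.02 (standard error 0.196). It was 0.92 without siHOXA3 replicate 2, the lowest of all refits.

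CLEC11A (ENSG00000105472, chromosome 19 from 50723329 to 50725718, plus strand), a C-type lectin known as osteolectin, is a secreted growth factor for bone-forming and blood cells. Its counts were low, with 51, 28 and 39 in siControl and 74, 97 and 84 in siHOXA3. These were 3.42, 1.85 and 2.55 CPM against 5.07, 6.44 and 5.90 CPM, without overlap between the groups. The mean of 2.60 ± 0.786 CPM in siControl compared with 5.80 ± 0.686 CPM in siHOXA3 (SD, n = 3), and the log2 fold change was 1.16 with a standard error of 0.26, or 1.07 without siHOXA3 replicate 2.

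C1QTNF4 (ENSG00000172247, chromosome 11 from 47589664 to 47594659, minus strand), a secreted protein built of C1q domains, had the largest fold change of the 7 genes. The counts were 33, 49 and 25 in siControl and 88, 129 and 71 in siHOXA3, or 2.21, 3.23 and 1.63 CPM against 6.03, 8.56 and 4.99 CPM. The lowest siHOXA3 library was above the highest siControl library. With 2.36 ± 0.809 CPM in siControl and 6.53 ± 1.84 CPM in siHOXA3 (SD, n = 3), it was 2.77-fold higher, and its spread relative to the mean was the widest of the 7 genes in both groups, at 34.3% and 28.1%. The log2 fold change of 1.47 (standard error 0.299) was 1.22 without siHOXA3 replicate 2, and over all refits it ranged from 1.19 to 1.76.

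CERCAM (ENSG00000167123, chromosome 9 from 128411751 to 128437351, plus strand) is a relative of the collagen galactosyltransferases COLGALT1 and COLGALT2, which add sugars to collagen, and is also known as a cell adhesion molecule. It was at 59.3, 54.7 and 46.1 CPM in siControl and at 71.0, 76.4 and 79.9 CPM in siHOXA3, from 706 to 1152 counts. The groups did not overlap, and their means were 53.4 ± 6.69 and 75.8 ± 4.45 CPM (SD, n = 3). The log2 fold change was 0.51 (standard error 0.116) with all libraries and 0.50 without siHOXA3 replicate 2. COLGALT1 and COLGALT2 had log2 fold changes of 0.07 and -0.14, with edgeR adjusted p-values of 0.91 and 0.94, and of 0.12 and 0.08 without siHOXA3 replicate 2.

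CALU (ENSG00000128595, chromosome 7 from 128739292 to 128771807, plus strand) encodes calumenin, a calcium-binding EF-hand protein of the CREC family that acts in the secretory pathway and is partly secreted. It was by far the most highly expressed of the 7 genes, with 452, 430 and 408 CPM in siControl and 341, 339 and 286 CPM in siHOXA3. All siHOXA3 libraries were lower, and siHOXA3 replicate 2 lay close to replicate 1. The mean of 430.1 ± 22.2 CPM in siControl was 1.34-fold above the 322.0 ± 31.0 CPM in siHOXA3 (SD, n = 3), with a log2 fold change of -0.42 (standard error 0.11), and of -0.46 without siHOXA3 replicate 2. The other CREC genes tested, RCN1, RCN2, RCN3 and SDF4, had log2 fold changes of 0.03, 0.01, 0.09 and 0.24, and none passed the test, with edgeR adjusted p-values of 0.977, 0.988, 0.955 and 0.741. Without siHOXA3 replicate 2, RCN1, RCN2 and RCN3 lay below 0 like CALU, at -0.26, -0.17 and -0.20, and SDF4 was at 0.17. RCN1 was the next highest CREC gene by level per kilobase, with 47.0 CPM per kilobase over all libraries, and siHOXA3 replicate 2 was its highest library.

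**Figure D2:**
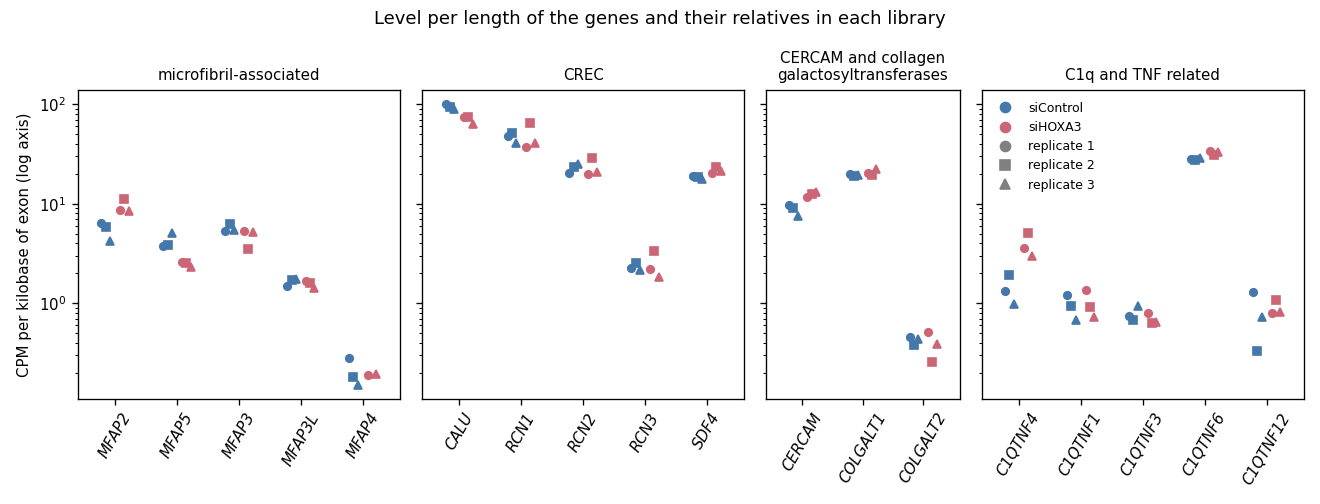
CPM per kilobase of exon (log axis) in each library for the genes and their relatives in 4 families, with siControl in blue, siHOXA3 in red and replicates 1 to 3 as circles, squares and triangles; MFAP4 had no count in siHOXA3 replicate 2, and this point is not drawn. MFAP2 and MFAP5 separate in siHOXA3, and CALU is the highest CREC gene in every library.

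Per kilobase of exon, the siControl means placed the genes in the order CALU (94.8 CPM per kilobase), CERCAM (8.81), MFAP2 (5.5), MFAP5 (4.28), CTHRC1 (3.61), CLEC11A (1.77) and C1QTNF4 (1.42). In siHOXA3 the order was CALU (71.0), CERCAM (12.5), MFAP2 (9.43), CTHRC1 (7.3), CLEC11A (3.95), C1QTNF4 (3.92) and MFAP5 (2.49), so that MFAP5 was last in siHOXA3 but above 3 of the other genes in siControl. Neighbours in this order whose libraries overlapped were MFAP2 and MFAP5, MFAP5 and CTHRC1, and CLEC11A and C1QTNF4 in siControl, and CLEC11A and C1QTNF4 in siHOXA3. CALU was in the top few percent of the tested genes by level per kilobase in every library, between the percentiles 97.2 and 98.5. C1QTNF4 lay between the percentiles 22.7 and 33.7 in siControl and 41.3 and 54.4 in siHOXA3, and MFAP5 between 46.7 and 54.1 in siControl and 36.2 and 39.3 in siHOXA3. Among the 15234 genes with a mean of 1 CPM or more, the fold change of C1QTNF4 ranked 8, CLEC11A 19, CTHRC1 43, MFAP2 148 and CERCAM 563 from the highest, while MFAP5 ranked 71 and CALU 542 from the lowest.

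Which of the 7 genes had an adjusted p-value under 0.05 depended on the method. In the main edgeR analysis none had, and 0.00604% of the tested genes did. DESeq2 called 5 (CTHRC1, MFAP2, MFAP5, CLEC11A and C1QTNF4), where it called 0.26% of all genes. edgeR without a filter on low counts called those 5 and CERCAM, with 0.29% of all genes called. limma-voom with library quality weights, which gave siHOXA3 replicate 2 a weight of 0.221 and the other libraries 0.922 to 2.11, called CTHRC1, CERCAM and CALU, beside 0.284% of all genes. edgeR without siHOXA3 replicate 2 called only CALU, with 0.14% of all genes called. These refits are the values on which the genes were chosen, so the shares are given side by side and nothing is read from them. CLEC11A lay just inside the threshold by DESeq2, with an adjusted p of 0.0466, and CERCAM just outside it, at 0.0681. By limma-voom, CALU was just inside, with an adjusted p of 0.0486, as were CTHRC1 and CERCAM, each at 0.0499. CLEC11A, MFAP5 and MFAP2 were just outside, at 0.0522, 0.0546 and 0.0554, and C1QTNF4 was at 0.0698.

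**Figure D3:**
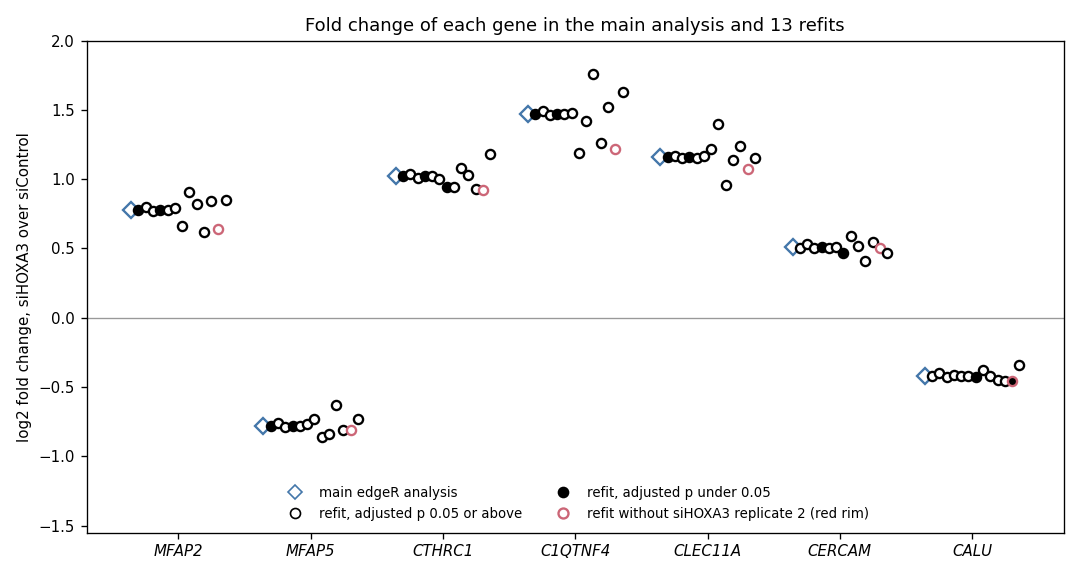
Log2 fold change (siHOXA3 over siControl) of each gene in the main edgeR analysis (blue diamonds) and in 13 refits (circles, filled where the adjusted p was under 0.05, red rim for the refit without siHOXA3 replicate 2). For each gene all values lie on the same side of 0, and filled circles occur in 2 or 3 refits of each gene.

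Across the 13 refits the log2 fold change of MFAP2 ranged from 0.62 to 0.91, of MFAP5 from -0.86 to -0.63, of CTHRC1 from 0.92 to 1.18, of CLEC11A from 0.96 to 1.4, of CERCAM from 0.41 to 0.59 and of CALU from -0.46 to -0.34. Non-overlapping groups were found for all 7 genes, 5 higher and 2 lower in siHOXA3, whereas 6.38% of all tested genes did not overlap and were higher, and 6.89% were lower. All 7 also had an unadjusted p under 0.05 by edgeR, which 3.79% of all tested genes reached with higher and 2.57% with lower levels in siHOXA3. The choice of the genes used this contrast, and nothing is read from these counts.

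Related genes outside the 7 were compared in the same edgeR analysis. Of 130 related matrix genes, 100 were tested, and 6 had no count in any library. None had an adjusted p under 0.05 in the main analysis or in any refit, by edgeR, DESeq2 or limma-voom. The lists leave out the 7 genes, which were chosen because refits called them. The absence of calls thus follows in part from that choice, and nothing is read from it. At an unadjusted p under 0.05, 6 of the 100 were higher and none was lower by edgeR, which is 6.0% beside 6.36% of all tested genes (3.79% higher and 2.57% lower). DESeq2 gave 6 (6.0%, beside 5.65% of all genes) and limma-voom 18 (18.0%, beside 13.3%). With a library left out, the number ran from 2 (1.96%, beside 3.75% of all genes) without siControl replicate 2 to 14 (13.7%, beside 10.7%) without siHOXA3 replicate 2. The groups did not overlap for 7 higher and 7 lower genes (7.0% each), which is near the shares of all genes, and the median log2 fold change of the 100 was -0.007, beside 0.002 for all tested genes and 0.778 for the 7 chosen genes.

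Among 26 tested microfibril and elastic fibre genes, the median log2 fold change was -0.065. FBLN1 and ADAMTSL4, which bind elastic fibres and fibrillin, had the highest levels per kilobase and log2 fold changes of 0.03 and -0.08, or 0.03 and 0.06 without siHOXA3 replicate 2. LOXL3, a cross-linking enzyme, was at 1.01 ± 0.254 CPM in siControl and 1.79 ± 0.285 CPM in siHOXA3 (SD, n = 3) without overlap, from 11 to 32 counts, with an edgeR adjusted p of 0.762. LOX, which acts on the same substrates, had a log2 fold change of -0.43, and LOX and LOXL3 were at -0.74 and 0.68 without siHOXA3 replicate 2. FBN2, a fibrillin of the fibres that MFAP2 and MFAP5 bind, is named after its values were seen, with 341 CPM in siControl, 319 CPM in siHOXA3 and an edgeR adjusted p of 0.933; its log2 fold change of -0.10 was 0.11 without siHOXA3 replicate 2.

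Of 19 C1q and TNF related genes, only 9 were tested, and their median log2 fold change was 0.086. C1QTNF6, the highest of them per kilobase, was at 202, 197 and 207 CPM in siControl and at 243, 219 and 236 CPM in siHOXA3, without overlap, and its edgeR adjusted p was 0.781. C1QTNF1 and C1QL3 had log2 fold changes of 0.09 and -0.27, or 0.14 and -0.02 without siHOXA3 replicate 2. C1QTNF4 thus lay at 1.42 and 3.92 CPM per kilobase in a family whose highest gene, C1QTNF6, was at 30.4 CPM per kilobase.

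The 21 tested CREC and collagen-processing genes of the endoplasmic reticulum ranged around a median of 0.016 (log2 fold change), from -0.19 to 0.44. The collagen chaperones and modifying enzymes P4HB and SERPINH1 were the highest, at 100 and 86.1 CPM per kilobase, a level near that of CALU, and both had a log2 fold change of -0.04, or 0.02 and -0.06 without siHOXA3 replicate 2. P3H3, a prolyl hydroxylase, was at 33.2 ± 8.16 CPM in siControl and 45.0 ± 6.59 CPM in siHOXA3 (SD, n = 3; edgeR adjusted p = 0.729), a log2 fold change of 0.44, or 0.32 without siHOXA3 replicate 2. With all libraries, CALU was at -0.42. It was chosen on this contrast, so nothing is read from its place below the 21.

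Of 12 genes for partners of CTHRC1 and CLEC11A, 8 were tested, and the median log2 fold change was -0.084. ITGB1, an integrin chain, and FZD6, a Frizzled receptor, had log2 fold changes of 0.07 and 0.09, and WNT11 and VANGL2, of the planar polarity pathway, had -0.47 and -0.22. Without siHOXA3 replicate 2 the values of ITGB1, FZD6, WNT11 and VANGL2 were 0.04, 0.03, -0.62 and -0.04. With all libraries, the highest of the 8 was 0.09. CTHRC1 and CLEC11A were chosen on this contrast, so nothing is read from their higher fold changes.

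For the 36 tested matrix glycoprotein and proteoglycan genes the median log2 fold change was -0.027. SPARC, a collagen-binding protein, was at 161 CPM per kilobase with a log2 fold change of 0.09. TGFBI, an adhesion protein, was at 783, 844 and 850 CPM in siControl and at 1130, 1130 and 978 CPM in siHOXA3, without overlap, with a log2 fold change of 0.39 and an edgeR adjusted p of 0.584. SPP1 and WISP1 had log2 fold changes of -0.45 and 0.44, both with overlapping groups. Without siHOXA3 replicate 2, SPARC, TGFBI, SPP1 and WISP1 were at 0.05, 0.35, -0.68 and 0.41.

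**Figure D4:**
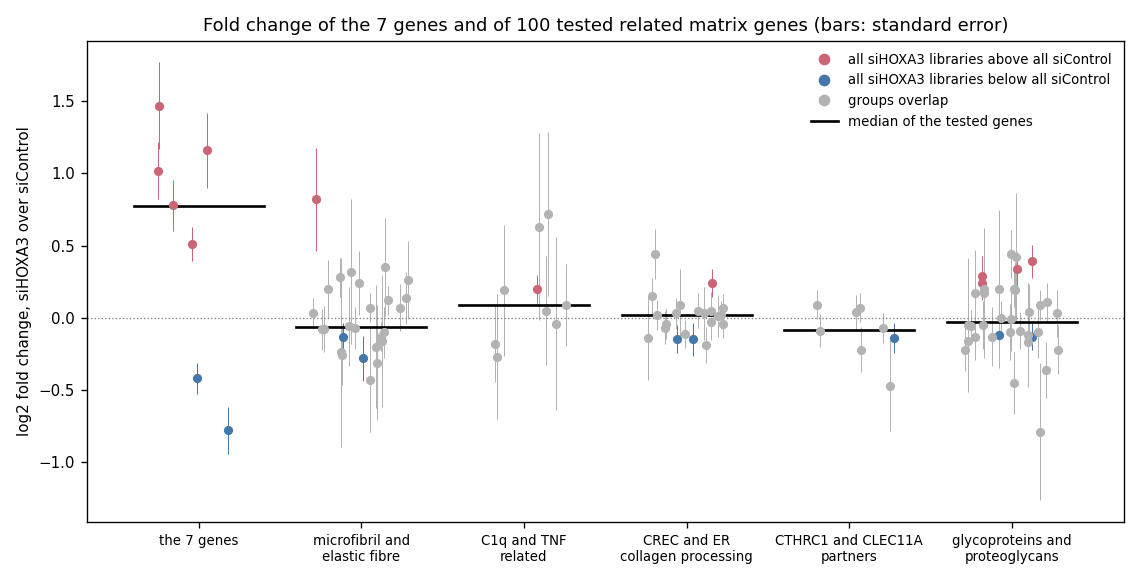
Log2 fold change (siHOXA3 over siControl, bars for the standard error) of the 7 genes and of 100 tested related genes in 5 lists, in red where all siHOXA3 libraries were above all siControl libraries, in blue where all were below and in grey where the groups overlapped, with a black line at each median. The medians of the 5 lists lie between -0.084 and 0.086, and the 7 genes, chosen on this contrast, have a median of 0.778.

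Within the groups, some pairs of the 7 genes varied in the same direction and others in opposite directions. Over the 6 libraries, the Pearson correlation of their deviations from the group means ran from -0.943 for MFAP5 and CERCAM to 0.774 for MFAP2 and C1QTNF4. These are descriptions over 6 libraries that share normalization and, in siHOXA3 replicate 2, a length-related deviation. The genes whose log2 CPM ran most closely with theirs over the same libraries, of 15233 compared, were TTC23 and TGFBI for CTHRC1 (r of 0.999 and 0.997), MYL9 and STK25 for MFAP2 (0.999 and 0.997), and GART and MTHFD1 for MFAP5 (0.992 and 0.987). For CLEC11A they were SRRM3 and GLB1L (0.992 each), for C1QTNF4 PALM and GPRIN2 (0.991 and 0.990), for CERCAM AC008267.3 and RND2 (0.992 and 0.989), and for CALU GJA5 and PUS7 (0.996 and 0.993). With so many genes and 6 points that fall into groups, values this high are found for each of the 7 genes.

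The 7 genes lie on 7 chromosomes, and none of the tested genes next to them on either side passed edgeR's test, with adjusted p-values of 0.809 to 0.99. FZD6, which lies 38648 bases before CTHRC1, had a log2 fold change of 0.09. ATP13A2, 5122 bases from MFAP2, had -0.02, URM1 and ODF2 beside CERCAM had 0.20 and 0.05, and KBTBD4 and MTCH2 beside C1QTNF4 had -0.09 and 0.13. Only LINC00937, 240542 bases from MFAP5, had groups that did not overlap, with 0.486 and 0.913 CPM, in the direction opposite to MFAP5. RIMKLB, 18711 bases from MFAP5 on its other side, had a log2 fold change of -0.04. The transcripts ranged in GC content from 42.0% for CALU and 43.7% for MFAP5 to 68.0% for CLEC11A and 71.2% for C1QTNF4. CALU and MFAP5, the 2 genes that were lower, had the lowest GC contents, followed by CTHRC1 with 43.9%, and the part of GC content in the values was not tested. In CTHRC1, CLEC11A, C1QTNF4 and CALU no stretch of 50 bases was shared with another gene, and in MFAP2, MFAP5 and CERCAM 1.84%, 1.88% and 1.37% of the stretches were.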

How the data were processed

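RNA-seq was performed on 3 siControl and 3 siHOXA3 libraries, grouped by their labels. The authors deposited the raw count of reads per gene and library, as whole numbers without normalization. Single reads of an LM-Seq library are named in the methods, and the labels also name a SMARTER kit. The submitters' processing notes name only the mouse builds GRCm38 and mm10, while all 58735 identifiers were found in the human GENCODE release 29 (GRCh38), which gave symbols, positions and exonic lengths. The aligner, the counting program and the handling of strand are not given in the sources used here. If the counting ignored strand, overlapping genes share reads.

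The main analysis used edgeR 4.0.16 under R 4.3.3 (low counts removed by filterByExpr, TMM normalization, robust quasi-likelihood fit, two-sided test, Benjamini-Hochberg adjustment over 16561 genes). CPM were computed from the deposited counts and the TMM-scaled library totals, and correlations and deviations used log2(CPM + 0.5). Alternatives were DESeq2 1.42.0 and limma 3.58.1 (voom with sample quality weights), upper-quartile factors, library size only, no filter (34513 genes with at least 1 count), CPM above 1 in 3 libraries, the replicate number as a block, and each library left out in turn. Marker sums were compared by an exact permutation test (scipy 1.17.1). The fits were tested on simulated data. No libraries were near enough to be copies of each other, and a chi-square per gene was 4.83 or more between replicates.

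The 7 genes, the related lists and the marker lists were chosen with earlier results of these data known. Besides the 7 genes and HOXA3, the genes named were, of each related list, the 2 with the highest level per kilobase and the 2 with the largest fold change at a mean of 1 CPM or more, the paralogs, the tested neighbour on each side and the 2 genes most correlated with each of the 7. FBN2 was named after its values were seen, as were EPCAM, KRT8, KRT18, GATA6, CXCR4, FOXA1, FOXA2, GATA4, SOX17, PRRX1, POSTN and FAP of the marker lists. COL1A1, COL1A2, COL3A1, COL6A3, LUM and THY1 of the fibroblast list were also named after their values were seen. Assays other than the RNA-seq of these libraries were not analysed here.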

Additional observations from a re-analysis of the deposited data

How the results depend on the processing

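For each of the 7 genes, the log2 fold change kept its direction in all 13 refits and moved by less than the SD between replicates, a description since this contrast chose them. At an adjusted p under 0.05, the main edgeR analysis called 0 of them, beside 5 by DESeq2, 6 without a filter, 3 by limma-voom and 0 to 1 with a library left out (1 without siHOXA3 replicate 2), and 0 with the other settings. In the whole table, 1 gene was called in the main analysis, 38 by DESeq2, 100 without a filter, 47 by limma-voom, 4 with the replicate block and 1 to 24 with a library left out (24 without siHOXA3 replicate 2). Same-numbered libraries of the 2 groups had correlations of deviations of 0.158, 0.111 and -0.0714, and differently numbered libraries had -0.187 to 0.098. Whether the replicate numbers pair the libraries cannot be told from these values. Under the replicate block 0 of the 7 genes and 0 of the related genes were called. No related gene was called under any setting, which follows in part from lists that leave out the 7 chosen genes. The median log2 fold change of the related genes, -0.007 in the main analysis, was 0.042 by limma-voom. It was between -0.029 and 0.043 with a library left out, 0.043 being without siHOXA3 replicate 2. The cause of these shifts was not tested. At 25 to 129 counts per library, CLEC11A and C1QTNF4 carried the widest standard errors of the 7 genes.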
